A study of Homo sapiens and Mus musculus with 25 samples.

Results

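The 303 promoters described here carried a peak in the authors' corrected list for H3K4me3, the trimethylated form of lysine 4 of histone H3, and none in their corrected list for H3K4me2, the dimethylated form. They were selected on those 2 lists among 19962 protein-coding genes on chromosomes 1 to 22 and X, of which they are 1.52%, in windows reaching 1 kb upstream and downstream from where each canonical transcript starts (TSS, transcription start site). A further 3307 windows held both corrected marks and serve as the comparison, called both-mark windows below. The chromatin came from K562, an established human cell line from a chronic myeloid leukaemia often studied for erythroid biology. ICeChIP-seq was used, a calibrated form of ChIP-seq whose internal standard is a set of barcoded nucleosomes carrying defined modifications. Peak lists of 17 antibodies against methylated H3K4 were used, 1 library each, together with 1 list each for H3K9me3 and H3K27me3 and the 3 corrected lists. All of these share the same cell line, and the labels name no separate cultures, so the spread given below is between antibodies and not between biological replicates.

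The authors computed the corrected lists from the libraries of Abcam ab8895 (H3K4me1), ab7766 (H3K4me2), ab12209 and ab8580 (both H3K4me3), per the deposited notes. Those 4 antibodies therefore took part in choosing the promoters and are only described. The other 13 lists, 4 for H3K4me1, 3 for H3K4me2 and 6 for H3K4me3, were not used in the choice and are called independent. The lists cover very unequal parts of the genome. Independent H3K4me3 lists covered 18.7 Mb (EpiGentek A-4033-050) to 165 Mb (EMD Millipore 07-473), and H3K4me2 lists 111 Mb (EMD Millipore 05-1338) to 1502 Mb (Cell Signaling Technologies 9725). Independent H3K4me1 lists covered 723 Mb (Thermo Fisher 710795) to 1593 Mb (Active Motif 39635). The 2 repressive marks covered 2029 Mb (H3K27me3) and 2834 Mb (H3K9me3), so an overlap with them carries little information. As a check of the cell line, 20 of 30 erythroid marker genes had H3K4me3 in at least 4 independent lists at the promoter, against 2 of 20 lymphoid and 0 of 18 liver genes. Over all windows the share was 52.9%, against 66.7% of the erythroid genes.

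H3K4 methylation is laid down by enzymes of the SET1 and MLL families. SET1 complexes reach promoters partly through a subunit that binds unmethylated CpG. At an active promoter H3K4me3 usually sits on the nucleosomes beside the start site, H3K4me2 reaches further out and H3K4me1 lies outermost, leaving a dip of H3K4me1 over the start. Because trimethylation proceeds through the dimethylated form, promoters with H3K4me3 and no H3K4me2 nearby would be unusual. The chromatin is from many cells, so peaks of different lists at a promoter may lie in different cells or on different alleles.

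The sequences below are examples from the promoters and corrected H3K4me3 peaks of the members, with CpG in capitals, read 5′ to 3′ on the strand of the gene from GRCh38 (hg38). The first 3 are the 200 bases upstream of the TSS of members whose corrected H3K4me3 peak had a value of 20 or more, and none overlaps an annotated exon. The NDUFB7 and ZNF845 stretches lie under the corrected peak. That of C1GALT1C1 lies outside its peak, which is at chrX:120630323-120630550. NDUFB7 (chr19:14572067-14572266, minus strand) encodes a subunit of mitochondrial complex I, ZNF845 (chr19:53333549-53333748, plus strand) a zinc finger protein, and C1GALT1C1 (chrX:120630055-120630254, minus strand) the chaperone Cosmc of O-glycan synthesis.
NDUFB7: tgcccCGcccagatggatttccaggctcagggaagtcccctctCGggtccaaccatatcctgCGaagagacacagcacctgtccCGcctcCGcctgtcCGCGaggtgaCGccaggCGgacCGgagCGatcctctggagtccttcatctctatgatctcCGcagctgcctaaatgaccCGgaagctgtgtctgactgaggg
ZNF845: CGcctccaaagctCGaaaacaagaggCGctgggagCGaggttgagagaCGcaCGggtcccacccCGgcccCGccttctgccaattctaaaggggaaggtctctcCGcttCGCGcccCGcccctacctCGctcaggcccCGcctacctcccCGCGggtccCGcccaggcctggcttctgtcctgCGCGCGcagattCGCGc
C1GALT1C1: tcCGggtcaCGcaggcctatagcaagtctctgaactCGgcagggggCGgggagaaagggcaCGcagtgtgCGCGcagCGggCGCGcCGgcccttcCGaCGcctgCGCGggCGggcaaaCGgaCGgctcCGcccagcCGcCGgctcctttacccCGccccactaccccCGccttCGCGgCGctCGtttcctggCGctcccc
The other 3 are whole corrected H3K4me3 peaks of members with a value under 20, each inside an annotated intron. They overlap the windows of HOXB8 (chr17:48616263-48616467, in an intron of HOXB7), a homeobox gene, and of the olfactory receptor genes OR52B2 (chr11:6170483-6170696, in an intron of ENSG00000254444) and OR6Y1 (chr1:158553627-158553899, in its own intron), all read on the minus strand. Only 30 of the 205 bases of the HOXB8 peak lie in the HOXB8 window. The OR52B2 and OR6Y1 peaks lie wholly inside their windows.
HOXB8: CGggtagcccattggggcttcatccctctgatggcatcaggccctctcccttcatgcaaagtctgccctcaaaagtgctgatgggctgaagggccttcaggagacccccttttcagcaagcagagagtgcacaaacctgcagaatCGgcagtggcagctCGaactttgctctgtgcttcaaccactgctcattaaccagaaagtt
OR52B2: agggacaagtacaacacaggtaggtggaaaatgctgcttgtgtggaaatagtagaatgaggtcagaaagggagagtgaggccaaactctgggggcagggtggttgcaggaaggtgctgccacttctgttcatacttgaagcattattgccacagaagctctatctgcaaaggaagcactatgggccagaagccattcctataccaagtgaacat
OR6Y1: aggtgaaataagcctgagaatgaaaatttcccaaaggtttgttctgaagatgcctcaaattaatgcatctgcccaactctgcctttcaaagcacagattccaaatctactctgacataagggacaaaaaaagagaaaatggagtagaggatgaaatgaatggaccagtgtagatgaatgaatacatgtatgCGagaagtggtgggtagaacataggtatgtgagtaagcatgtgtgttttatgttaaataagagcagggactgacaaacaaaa
The upstream stretches held 13, 22 and 28 CpG in the order printed, and the peaks 3, 0 and 1, although the peaks are slightly longer at 205, 214 and 273 bases. The upstream stretches and the intronic peaks are unlike regions, so these counts are no comparison of the genes. Over the whole window of 1 kb to each side, the ratio of observed to expected CpG was 0.579 at NDUFB7, 0.597 at ZNF845 and 0.682 at C1GALT1C1. It was 0.162 at OR52B2 and 0.254 at OR6Y1, but 0.830 at HOXB8, above all 3 members of the higher values.

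The 303 promoters fell into 2 separate ranges of the authors' value for the corrected H3K4me3 peak. No header names that value, and it is read as an apparent modification density. In 239 promoters the value was under 20, with a median of 9.91 and a range of 5.42 to 19.6. In the other 64 it was 20 or more, with a median of 56.2 and a range of 20.6 to 78.4. Only BEST3 (20.6) and ZNF491 (22.9) had a value between 20 and 30, and the boundary at 20 was set after the values were seen. The both-mark windows had a median of 45.7, and 196 of 3307 were under 20. The peaks themselves differed likewise. They had a median width of 282 bases in the lower range, 1071 bases in the upper range and 1865 bases at both-mark windows. The TSS lay under the peak at 9.62% of the lower, 70.3% of the upper and 88.7% of both-mark windows. These are values of the rule's own list and are given as a description.

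**Figure D1:**
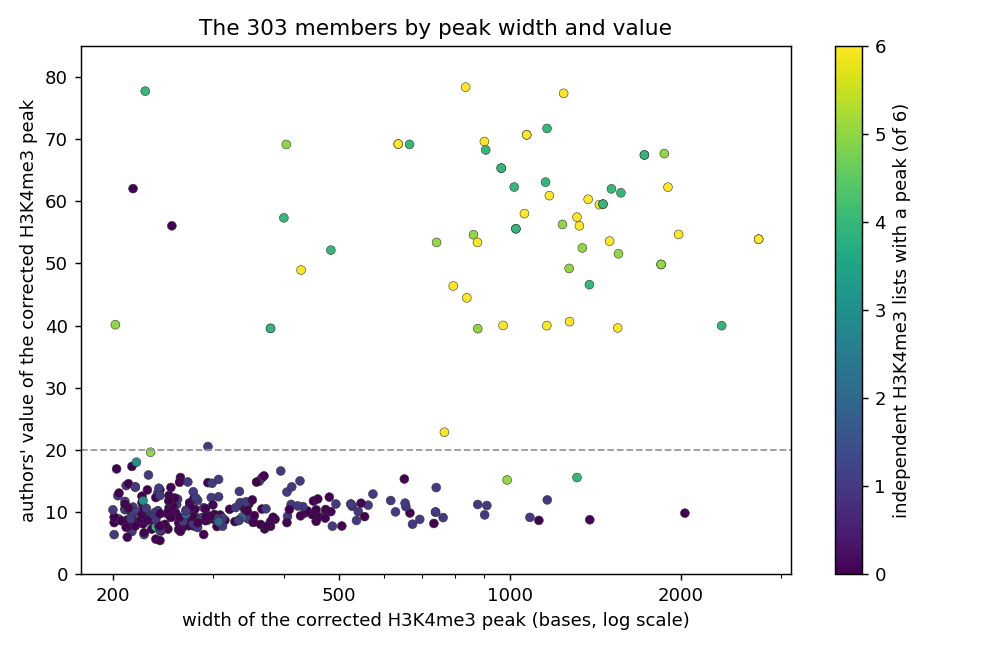
Width (bases, log scale) and authors' value of the corrected H3K4me3 peak at each of the 303 members, coloured by the number of the 6 independent H3K4me3 lists with a peak in the window. The dashed line is the value of 20. Points above it are mostly in 4 or more lists, and those below it mostly in 0 or 1.

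Few of the weaker promoters had H3K4me3 in more than 1 independent list. Of the 239 in the lower range, 136 (56.9%) had a peak in 0 of the 6 independent H3K4me3 lists, against 27.6% of all windows. A peak in at most 1 list was found at 229 (95.8%, against 39.95% of all windows), and in 4 or more at 4 (1.67%, against 52.9%). By list, a peak was found at 2.93% of them with Abclonal A2357 (58.0% of all 19962 windows), 4.18% with EMD Millipore 05-745R (57.8%) and 1.26% with Thermo Fisher PA5-40086 (53.3%). It was found at 0.837% with Diagenode C15410003 (40.2% of all windows) and 0.418% with EpiGentek A-4033-050 (33.5%). EMD Millipore 07-473, the independent H3K4me3 list of greatest covered length, had a peak at 42.7% of them (69.5% of all windows). Every independent H3K4me3 list thus marked the weaker promoters less often than promoters at large.

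The stronger promoters had H3K4me3 in most independent lists. The lists of Thermo Fisher PA5-40086, Abclonal A2357 and the EMD Millipore antibodies 07-473 and 05-745R each had a peak at 95.3% of the 64. Diagenode C15410003 had one at 57.8% and EpiGentek A-4033-050 at 46.9%, against 88.2% and 82.7% of both-mark windows. Both of these lists carry the tag AR17, while the lists at 95.3% and the corrected lists carry the tag AR16. Antibody and tag therefore cannot be told apart here. Of the 64, 27 had H3K4me3 in all 6 lists (42.2%, against 31.7% of all and 82.2% of both-mark windows). In 4 or more of these lists it was found at 61 (95.3%, against 52.9% and 94.5%). The exceptions were AXIN2, a negative regulator of Wnt signalling (value 62.0, peak of 217 bases), CCDC74A (56.1, 254 bases) and BEST3, a bestrophin channel gene (20.6, 294 bases), named after their values were seen. AXIN2 and CCDC74A had a peak in 0 independent H3K4me3 lists and BEST3 in 1. The lists of Abcam ab12209 and ab8580 had no peak at AXIN2 or CCDC74A either. Over all 303 members, the share with a peak was 53.8% for EMD Millipore 07-473 and 23.4% for 05-745R of the same maker. It was 22.4% for Abclonal A2357, 21.1% for Thermo Fisher PA5-40086, 12.9% for Diagenode C15410003 and 10.2% for EpiGentek A-4033-050.

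**Figure D2:**
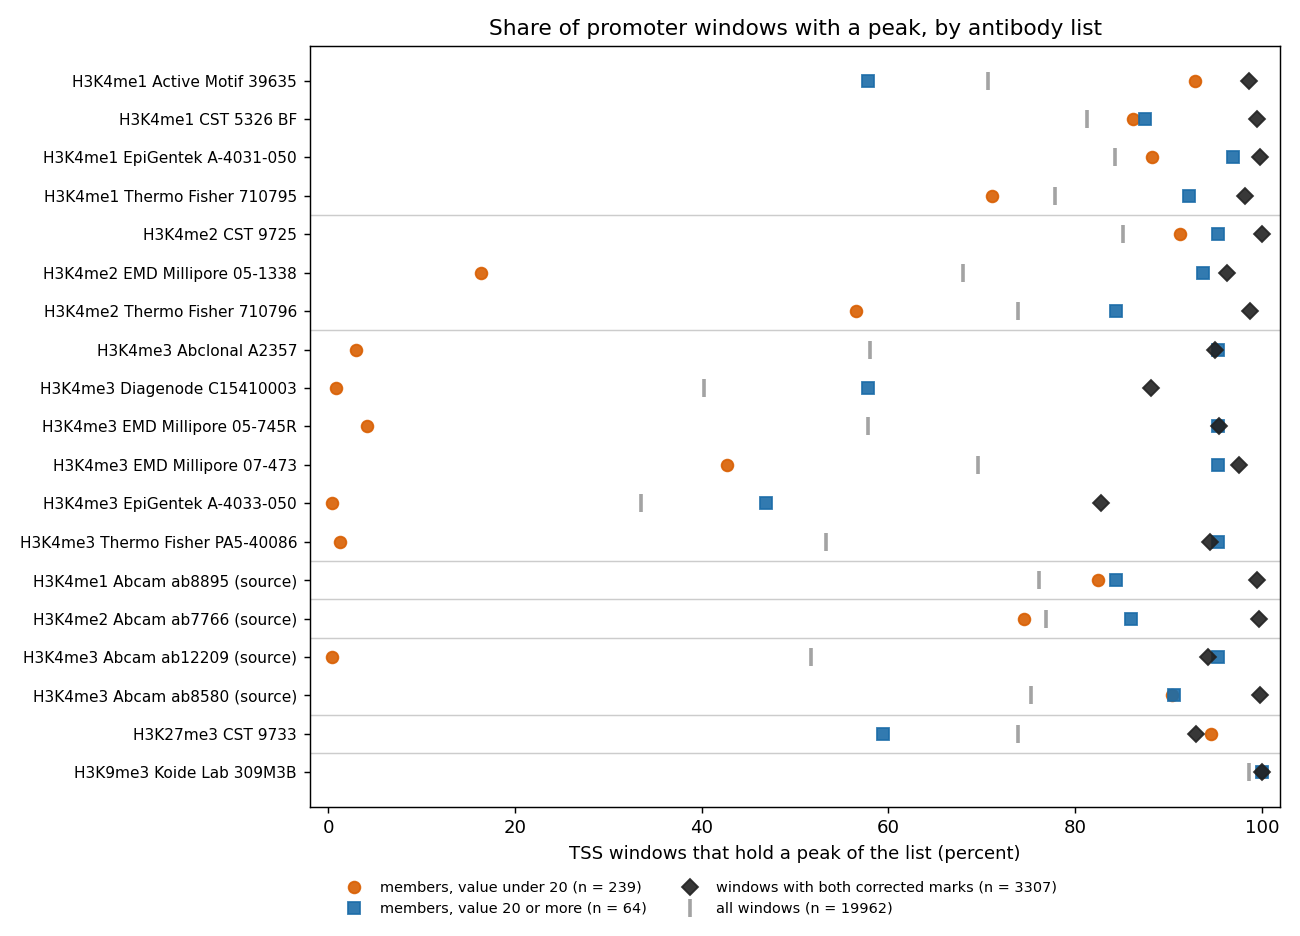
Percent of windows that hold a peak, for each of the 19 lists of single antibodies (rows, CST for Cell Signaling Technologies or Technology, source for the 4 antibodies behind the corrected lists). Circles are members under a value of 20, squares members of 20 or more, diamonds both-mark windows and bars all windows. The circles lie left of the bars in all 6 independent H3K4me3 rows, and the squares lie right of the bars in all 3 independent H3K4me2 rows.

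The independent antibodies did find H3K4me2 at the stronger promoters. Cell Signaling Technologies 9725 had a peak at 95.3% of the 64 (85.1% of all windows), EMD Millipore 05-1338 at 93.8% (68.0%) and Thermo Fisher 710796 at 84.4% (73.8%). All 3 lists had one at 53 of the 64 (82.8%), against 96.2% of both-mark windows and 61.5% of all windows. H3K4me3 in all 6 lists with H3K4me2 in none of the 3 occurred at 0 of the 303 members. It also occurred at 0 of all 19962 windows, so it does not set the members apart. At these 53 promoters the uncorrected independent lists and the corrected list thus differ on H3K4me2. The independent lists were not corrected for off-target capture, and its part in their H3K4me2 peaks was not tested.

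At the weaker promoters the H3K4me2 lists disagreed. Cell Signaling Technologies 9725 had a peak at 91.2% of the 239, above its 85.1% of all windows. Thermo Fisher 710796 had one at 56.5% (73.8% of all windows) and EMD Millipore 05-1338, the list of least covered length, at 16.3% (68.0%). All 3 lists had one at 28 of 239 (11.7%, against 61.5% of all windows) and none of the 3 at 14 (5.86%, against 11.5%). Over all 303 the shares were 92.1%, 62.4% and 32.7% in the same order of antibodies.

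RNF115, a ubiquitin ligase gene, and POLR3C, for a subunit of RNA polymerase III, were the members nearest to the name of the set. Their start sites lie head to head, 105 bases apart, under a single corrected H3K4me3 peak (chr1:145823494-145825340) with a value of 49.8. The window of each gene had a peak in 5 of 6 independent H3K4me3 lists and in 0 of 3 independent H3K4me2 lists. The authors' values there were 45.0 in Abclonal A2357, 36.7 in EMD Millipore 05-745R, 38.3 in EMD Millipore 07-473 and 31.7 in Thermo Fisher PA5-40086. H3K4me1 was present in all 4 independent lists at both windows, with values of 27.9 in Active Motif 39635, 23.0 in Cell Signaling Technologies 5326 BF, 31.2 in EpiGentek A-4031-050 and 19.0 in Thermo Fisher 710795. The nearest corrected H3K4me2 peak lay 4700 bases from the POLR3C start. These 2 windows are 1 locus, and the pair was picked after the values were seen. Among all 19962 windows, 11 had H3K4me3 in 4 or more lists and H3K4me2 in 0, and 0 of the 3307 both-mark windows did.

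**Figure D3:**
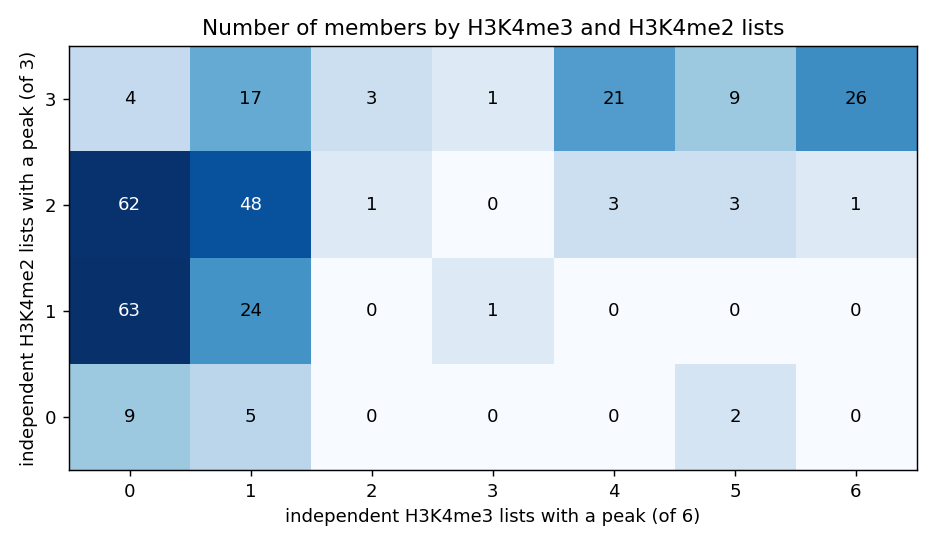
Number of the 303 members by how many of the 6 independent H3K4me3 lists (horizontal) and of the 3 independent H3K4me2 lists (vertical) had a peak in the window, with darker shades for higher counts. The members gather at 0 or 1 H3K4me3 list with 1 or 2 H3K4me2 lists, and at 4 to 6 H3K4me3 lists with all 3 H3K4me2 lists. The cell for 6 and 0 lists is empty, as it is over all 19962 windows.

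H3K4me1 was common in both ranges. A corrected H3K4me1 peak lay in 244 of the 303 windows (80.5%, against 71.4% of all and 98.7% of both-mark windows). In the independent lists, Active Motif 39635 had a peak at 85.5% of members (70.7% of all windows), Cell Signaling Technologies 5326 BF at 86.5% (81.3%), EpiGentek A-4031-050 at 90.1% (84.2%) and Thermo Fisher 710795 at 75.6% (77.8%). Active Motif 39635 differed from the others in that it marked 92.9% of the weaker but 57.8% of the stronger promoters. Its peaks had a median width of 25008.5 bases, against 754 or less in the others, and the part of width was not tested. Thermo Fisher 710795 went the other way, with 71.1% and 92.2%, as did EpiGentek A-4031-050 with 88.3% and 96.9%. Cell Signaling Technologies 5326 BF hardly differed, with 86.2% and 87.5%. Gaps of Active Motif 39635 and of other lists fell partly on the same stronger promoters. C1QBP and MRPL43 lacked a peak of Active Motif 39635, Diagenode C15410003, EpiGentek A-4033-050 and H3K27me3. Among these lists NDUFB7 lacked Active Motif 39635 alone, and HSD17B1 lacked all but Active Motif 39635. How far the gaps coincide over the stronger members was not tested.

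The 4 source lists differed between the ranges. Abcam ab8580, an H3K4me3 antibody whose list covers 769 Mb, had a peak at 90.4% of all members (75.3% of all windows), and Abcam ab12209, whose list covers 21.2 Mb, at 20.5% (51.7%). In the lower range ab12209 had a peak at 1 promoter of 239, and 215 (90.0%) had a peak of ab8580 and none of ab12209. That combination was found at 26.5% of all windows and 5.59% of both-mark windows. In the upper range ab12209 had one at 95.3% and ab8580 at 90.6%. Neither H3K4me3 source list had a peak at 25 members (8.25%, against 21.8% of all windows), although the corrected list made from them did. Of these 25, 23 were in the lower range. The H3K4me1 source, Abcam ab8895, had one at 82.8% of members (76.1% of all windows) and the H3K4me2 source, Abcam ab7766, at 76.9% (76.9% of all windows). These 4 lists entered the choice, so the counts describe the set and test nothing.

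Tests were run on the 13 independent lists, as the percent of members minus the percent of both-mark windows that held a peak. Over 4 H3K4me1 antibodies the mean difference was -14.6 points with an SD of 5.55. The 3 H3K4me2 antibodies gave -35.95 with an SD of 27.9, and the 6 H3K4me3 antibodies -68.2 with an SD of 12.1. H3K4me3, the mark the members were chosen to have, thus had the most negative mean. Single antibodies of H3K4me2 and H3K4me3 overlapped, with EMD Millipore 05-1338 (H3K4me2) at -63.6. Every independent H3K4me1 list covered at least 723 Mb and every independent H3K4me3 list at most 165 Mb. Target and covered length therefore cannot be told apart between these 2 marks. H3K4me1 and H3K4me3 differed by 53.6 points, with the highest H3K4me3 value (-43.8) below the lowest H3K4me1 value (-22.6) (exact two-sided permutation p = 0.00952, the smallest this design allows, Benjamini-Hochberg adjusted p = 0.0429 over 9 tests). The gap of 32.3 points from H3K4me2 to H3K4me3 did not pass (adjusted p = 0.103 from an exact permutation p of 0.0476), nor did that of 21.3 points from H3K4me1 to H3K4me2 (adjusted p = 0.429 from an exact permutation p of 0.286). Within either range of value the difference was small. Among members and both-mark windows of 20 or more it was 0.0594 points (exact permutation, adjusted p = 0.833), and among those under 20 it was 1.67 points (exact permutation, adjusted p = 0.675). This split rests on the rule's own list, at a boundary set after the values were seen, so its results only describe. Under 20 were 239 of the 303 members but 196 of the 3307 both-mark windows. Leaving out any 1 of the 4 H3K4me1 or 6 H3K4me3 antibodies also ended the call, since fewer antibodies raise the smallest p the exact test allows (adjusted p = 0.0714), while the difference stayed at 52.0 to 58.5 points.

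Both-mark windows of low value also lacked H3K4me3 in most independent lists. Of the 196 both-mark windows under 20, Abclonal A2357 had a peak at 16.3%, EMD Millipore 05-745R at 24.5% and EMD Millipore 07-473 at 60.2%. Thermo Fisher PA5-40086 had one at 9.69%, Diagenode C15410003 at 10.2% and EpiGentek A-4033-050 at 7.65%. Among the 3111 both-mark windows of 20 or more, the 6 shares lay between 87.5% and 99.9%. Each share at weaker both-mark windows was above that at the weaker members, a difference that was not tested on its own.

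Around the start site the stronger promoters had the usual arrangement of the marks, and the weaker ones showed little of it. Averaged over the 6 independent H3K4me3 lists, 72.4% of the stronger TSS bases were under a peak, against 1.04% at 3 kb upstream and 2.86% at 3 kb downstream. The figure was 4.32% at the weaker TSS, 88.8% at both-mark and 46.8% at all windows. H3K4me2 over the stronger promoters dipped to 63.5% at the TSS and reached 88.5% at 800 bases downstream, and over the weaker ones it was 39.1% at the TSS and 32.6% at 3 kb upstream. H3K4me1 dropped to 27.7% at the stronger TSS from 68.8% at 1 kb upstream. At the weaker TSS it did not dip, with 63.0% at the start and 58.7% at 1 kb upstream. Both-mark windows had 44.7% at the TSS and 92.2% at 1 kb upstream.

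**Figure D4:**
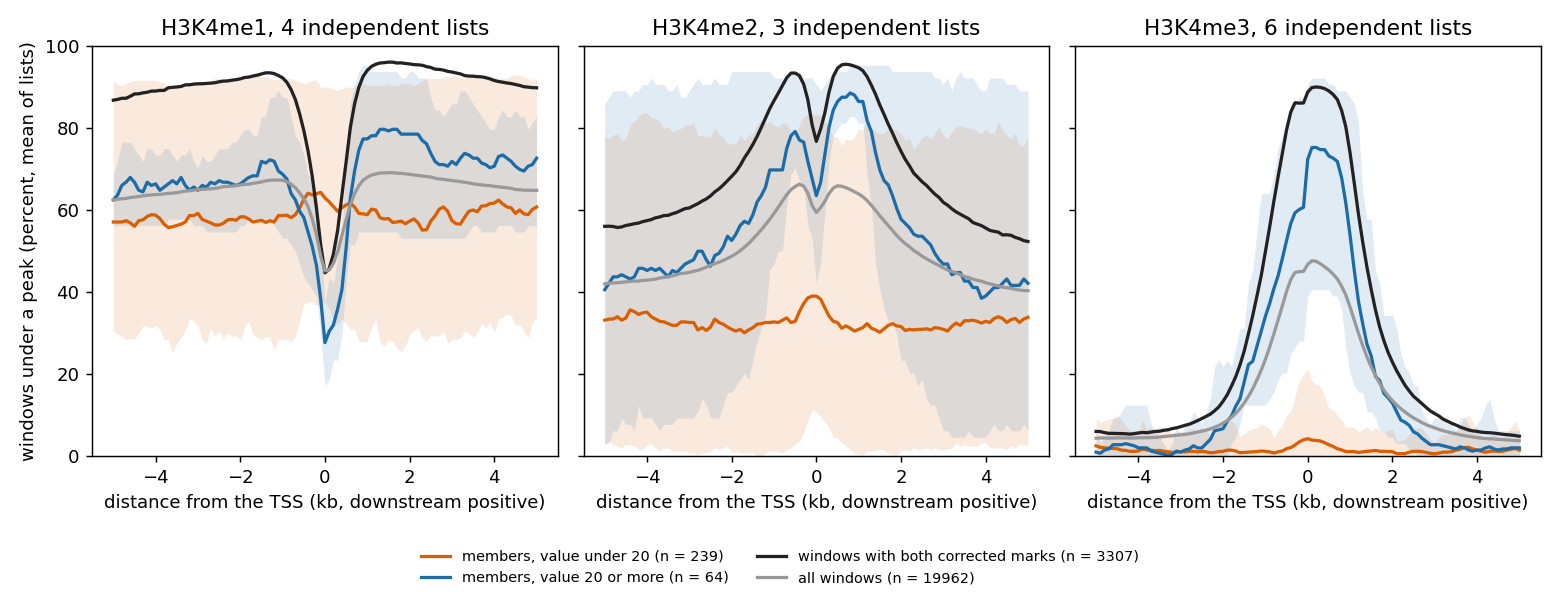
Percent of windows whose base at each distance from the TSS (kb, downstream positive) lies under a peak, as the mean of 4 H3K4me1, 3 H3K4me2 and 6 H3K4me3 independent lists. Lines are the 2 ranges of members, both-mark windows and all windows, and shaded bands give the lowest and highest list for the members. The stronger members follow the shape of the both-mark windows with a dip of H3K4me1 at the TSS, and the weaker members are nearly level.

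Occupancy of the TSS, the percent of start sites covered by a peak less the average of the same percent 3 kb to each side, was compared in the same way. Members minus both-mark windows gave 42.6 points with an SD of 23.0 over the 4 H3K4me1 antibodies, -6.34 with an SD of 11.2 over the 3 H3K4me2 antibodies, and -62.3 with an SD of 11.6 over the 6 H3K4me3 antibodies. Within a target these differences did not pass exact sign-flip permutation tests (adjusted p = 0.225 for H3K4me1, 0.5 for H3K4me2 and 0.141 for H3K4me3), nor did those in share (0.225, 0.321 and 0.141) or in value (0.225, 0.321 and 0.5). At the stronger members H3K4me1 at the TSS was -40.6 points relative to its flanks, near the -47.5 of both-mark windows, and at the weaker members it was 4.65. H3K4me1 and H3K4me3 differed by 105 points (exact permutation p = 0.00952, adjusted p = 0.0429). Neither the 56.0 points between H3K4me2 and H3K4me3 (adjusted p = 0.0714 from an exact permutation p of 0.0238) nor the 48.9 points between H3K4me1 and H3K4me2 passed (adjusted p = 0.103 from an exact permutation p of 0.0571). In the same split by the rule's own value, again only a description, the H3K4me1 to H3K4me3 difference was 24.2 points at 20 or more (exact permutation, adjusted p = 0.514). Under 20 it was 3.98 points (exact permutation, adjusted p = 0.443). Leaving out any 1 of the same antibodies ended this call too (exact permutation, adjusted p = 0.0714), with a difference of 99.4 to 116 points.

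Where an independent list had a peak, its height was compared as the log2 ratio of the median authors' value at members to that at both-mark windows. The mean was -0.74 with an SD of 0.40 over 4 H3K4me1 lists, -0.85 with an SD of 0.64 over 3 H3K4me2 lists, and -0.53 with an SD of 1.03 over the 4 H3K4me3 lists that hold values. No pair of targets passed, with adjusted p of 0.914, 0.914 and 0.735 in exact permutation tests. For H3K4me3 the spread came from EMD Millipore 07-473 at -2.07, and the other 3 lists lay between -0.06 and 0.06. Only windows with a peak entered, so the lists compared different members. Abclonal A2357 kept 68 members, EMD Millipore 05-745R 71 and Thermo Fisher PA5-40086 64, of which 61 each were stronger members. EMD Millipore 07-473 kept 163, and the H3K4me1 lists kept 229 to 273. The ratios are therefore not over the same promoters between targets. In the 07-473 list the median value was 7.94 at weaker and 42.3 at stronger members, and 42.4 at both-mark windows.

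The members of highest corrected value had both marks in most independent lists. DHX40, a DEAH-box helicase gene, had the highest corrected value, 78.4, with a peak of 836 bases at chr17:59565562-59566397. Its window had a peak in all 13 independent H3K4 lists, with H3K4me2 values of 18.8 in Cell Signaling Technologies 9725, 19.5 in EMD Millipore 05-1338 and 22.6 in Thermo Fisher 710796. The H3K4me3 values at DHX40 were 65.9 in Abclonal A2357, 45.2 in EMD Millipore 05-745R, 50.8 in EMD Millipore 07-473 and 61.9 in Thermo Fisher PA5-40086. Both marks were thus listed at DHX40 by every independent antibody, while its nearest corrected H3K4me2 peak lay 9509 bases from the TSS. C1GALT1C1 (77.7) was the only member on the X chromosome and had H3K4me3 in 4 and H3K4me2 in 2 independent lists. ZDHHC13, of the palmitoyltransferase family, had a value of 77.4 and a peak in all 13 lists. C1QBP, for a mitochondrial matrix protein, had a value of 71.7, with H3K4me3 in 4 and H3K4me2 in 3 lists. NUBP2, which acts in cytosolic iron-sulfur cluster assembly, and its head-to-head neighbour SPSB3 shared 1 peak of 70.7 and had all 13 lists, as did P4HB, the protein disulfide isomerase of the endoplasmic reticulum (69.6).

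The widest corrected peak among members, 2743 bases, spanned the start of AP3S1, for an adaptor subunit of vesicle transport, at chr5:115840111-115842853. It was shared with ATG12, for the ubiquitin-like modifier of autophagy, whose TSS lies 370 bases away. HSD17B1, which makes estradiol, had a peak of 2361 bases centred 1712 bases downstream of its TSS, LDAH, a lipid droplet hydrolase gene, one of 1983 bases, and ELL, for an elongation factor of RNA polymerase II, one of 1899 bases. ENSG00000269693, an unnamed gene, had a peak of 2034 bases with a value of 9.83 and H3K4me3 in 0 independent lists. A head-to-head partner, a protein-coding TSS on the other strand within 1 kb upstream, was found for 14 of the 64 stronger members (21.9%), close to the 21.2% of both-mark windows, and for 2.93% of the weaker ones and 9.49% of all windows. The 14 are 7 pairs in which both genes were members: RNF115 and POLR3C, CHPF and TMEM198, ATG12 and AP3S1, MRPL43 and TWNK, SPSB3 and NUBP2, DERL2 and MIS12, and VRK3 and ZNF473. The 303 windows lie on 290 distinct corrected peaks.

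Gene lists were described by counts, beside 1.52% of all windows and without a test. Of 78 mitochondrial ribosomal protein genes, 1 was a member, MRPL43 (value 67.5), and 47 had both corrected marks. Of 77 nuclear genes of oxidative phosphorylation it was NDUFB7 (40.0), and of 55 genes of translation initiation factors EIF3G (60.9). Of 69 replication-dependent histone genes it was H2BC3, an H2B gene, at a value of 10.7. There were 0 members among 84 cytosolic ribosomal protein, 48 proteasome, 34 aminoacyl-tRNA synthetase, 60 spliceosome, 30 Mediator, 41 RNA polymerase II, 44 replication and cell cycle, 19 H3K4 methylation writer and eraser, 20 CpG-binding factor, 30 erythroid, 20 lymphoid and 18 liver genes. A 0 does not show that both corrected marks were present. Corrected H3K4me3 was listed at 18.1% of all windows. Both corrected marks were at 18 of 84 cytosolic ribosomal protein and 2 of 30 erythroid windows. The rest of these had no corrected H3K4me3 peak. H3K4me3 was nonetheless in 4 or more independent lists at 80 of the 84 and 20 of the 30. Among the gene lists with 0 members, aminoacyl-tRNA synthetases had both corrected marks most often, at 21 of 34. Zinc finger genes of chromosome 19, many of which encode repressors of transposable elements, gave 7 of 249 (2.81%). Of these ZNF473 (69.2), ZNF845 (56.1), ZNF586 (52.5), ZNF675 (39.6) and ZNF491 (22.9) were in the upper range, and ZNF66 (19.6) and ZNF610 (14.1) in the lower.

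Members from lists of genes with restricted expression had values under 20, as did 239 of all 303 members, and no difference was tested. HOX genes, which pattern the body axis, gave 4 of 39 (10.3%): HOXD9 (13.2), HOXB8 (13.1), HOXD10 (10.1) and HOXD11 (9.03). Of these, HOXD9 and HOXD10 had a peak in 1 and HOXB8 and HOXD11 in 0 of the 6 independent H3K4me3 lists. Only 1 of the 39 HOX windows held both corrected marks. Developmental transcription factor genes gave 4 of 144, which were FOXL3 (15.3), TBXT, the brachyury gene of mesoderm (12.6), WNT4, a signalling ligand gene that the list's pattern also took in (9.55), and FOXE3 (8.47). Olfactory receptor genes gave 7 of 416 (1.68%, close to the 1.52% of all windows, with 7 both-mark windows as well), led by OR6Y1 (11.4) and OR52B2 (10.3). At OR6Y1 the authors' values were 12.6 for H3K4me2 in Cell Signaling Technologies 9725 and 8.60 in Thermo Fisher 710796, and 7.54 for H3K4me3 in EMD Millipore 07-473, the single independent H3K4me3 list with a peak.

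In the lower range, 4 promoters had H3K4me3 in 4 or more independent lists and were named after their values were seen. They were ZNF66 (19.6, in 5 lists), KIAA1549 (15.6, in 4), MIXL1, a homeobox gene of mesendoderm (15.2, in 5), and PALD1 (7.59, in 4). KIAA1549, MIXL1 and PALD1 also had H3K4me2 in all 3 independent lists, and ZNF66 in 2.

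CpG content also differed between the ranges, without a test. The ratio of observed to expected CpG over the window had a median of 0.354 in the weaker and 0.696 in the stronger members, 0.693 at both-mark windows and 0.637 at all windows. A ratio of 0.6 or more was found at 30.5% of the weaker and 78.1% of the stronger members, and at 56.3% of all windows. Median GC content hardly differed, at 55.9%, 56.0% and 56.0% for weaker members, stronger members and all windows. CpG-poor weaker windows include OR52B2 (0.162) and OR6Y1 (0.254), while HOXD9 (0.863) and TBXT (0.771) are CpG-rich, so the lower range holds both kinds.

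Short motifs were counted on both strands from 250 bases before to 50 bases after the TSS. The ETS motif CCGGAAG was present at 32.8% of stronger and 4.18% of weaker members, 28.2% of both-mark and 14.1% of all windows. It occurs in the NDUFB7 stretch printed above. The GC box GGGCGG, which can overlap other GC-rich motifs, was present at 79.7% of stronger and 47.3% of weaker members and 61.3% of all windows, and occurs in all 3 upstream stretches printed. CCAAT was present at 45.3% of stronger members, 30.5% of weaker members and 36.02% of all windows. The TATA box TATAAA went the other way, at 6.25% of stronger and 13.8% of weaker members and 9.73% of all windows, as did the GATA motif AGATAA, at 0%, 9.62% and 7.15%. The motifs of NRF1 (GCGCATGCG), YY1 (AAGATGGCG), the CRE (TGACGTCA) and ZBTB33 (CTCGCGAG) were present at 3.13%, 6.25%, 4.69% and 1.56% of stronger members, which are 2, 4, 3 and 1 promoters. They were present at 0%, 0.418%, 0.837% and 0.418% of weaker members and at 2.70%, 2.85%, 2.69% and 1.46% of all windows. A match is a string of letters and was not tested as a binding site.

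**Figure D5:**
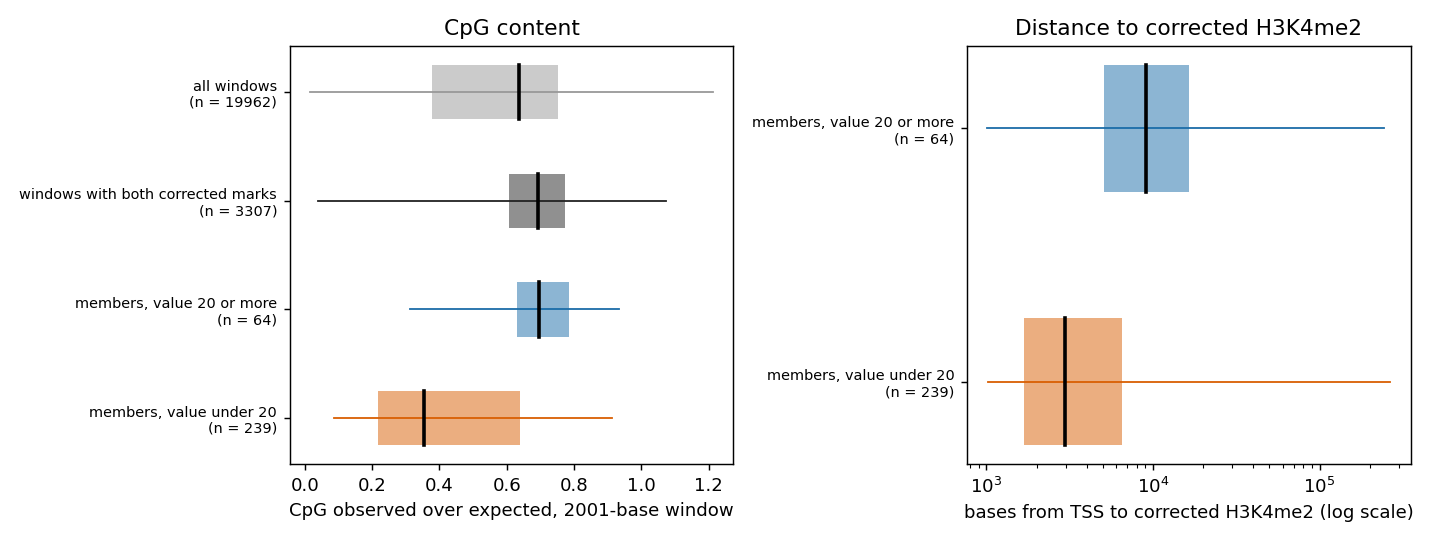
Left, observed over expected CpG in the 2001-base window for the 2 ranges of members, both-mark windows and all windows. Right, bases from the TSS to the nearest corrected H3K4me2 peak for the 2 ranges (log scale). Boxes are quartiles, black bars medians and lines the full range. Medians are 0.354 against 0.696 for CpG, and 2954 against 9060 bases for distance.

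Corrected H3K4me2 lay closer to the weaker promoters than to the stronger ones. The nearest peak was a median of 2954 bases from the TSS in the lower range and 9060 bases in the upper, and within 2.5 kb at 43.1% and 9.38%. The largest distances were 266120 and 244353 bases. The rule used this list and puts every member more than 1 kb from it, so these distances only describe the set. The members just inside the rule were NDUFB7, whose nearest corrected H3K4me2 peak began 10 bases beyond the window, TMEM213 (16 bases) and DRGX (18 bases). The windows just outside it were KRT74, with 9 bases of corrected H3K4me2, OR4B1 with 28 and KRTAP10-12 with 47. Of these 6, NDUFB7 alone had a corrected H3K4me3 value above 20. The set changes with the window: 182 promoters met the rule with 500 bases either side, of which 120 had H3K4me3 in at most 1 independent list, and 430 with 2.5 kb.

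H3K27me3, the mark of Polycomb repression, had a peak at 94.6% of the weaker and 59.4% of the stronger members, 93.0% of both-mark windows and 73.9% of all windows. With 87.1% over all members, and a list that covers 2029 Mb, the share is not above that of both-mark windows. The H3K27me3 list carries the tag AR17 and the corrected lists the tag AR16. The part of the tag in these shares was not tested. C1QBP, MRPL43, PNP, MLH3 and POLDIP3, stronger members without H3K27me3, each had 3 of 4 independent H3K4me1 lists. They had 4 of 6 independent H3K4me3 lists. ELL and NUBP2, also without H3K27me3, had all 13 independent H3K4 lists. At C1QBP and MRPL43 the absent H3K4me1 list was Active Motif 39635, which carries the tag AR16. DHX40, C1GALT1C1 and ZDHHC13 were the H3K27me3-overlapping members of highest value. H3K9me3 had a peak at 100% of members and 98.7% of all windows.

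Chromosomes 13, 14 and X held few corrected H3K4me3 windows, and members were 7 of the 21 there (33.3%). Of all 1798 windows on these chromosomes the 7 members were only 0.389%, below the 1.52% of all windows. Among the other chromosomes the share of corrected H3K4me3 windows that were members ran from 4.69% on chromosome 22 to 17.0% on chromosome 19, where 11 of 36 members were in the upper range. Chromosome 1 had the most windows and the most members, 47 of 2061 (2.28%, against 1.52% of all windows), with 3 in the upper range. The highest share of windows was on chromosome 21, at 6 of 220 (2.73%). On chromosome 17, 9 of 20 members were in the upper range.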

How the data were processed

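Peak lists from internally calibrated ChIP-seq of K562 chromatin were used as the authors deposited them: 1 list for each of 17 H3K4 antibodies, 1 each for H3K9me3 and H3K27me3, and 3 corrected lists. Peak positions are the deposited starts and ends on GRCh38. The deposited score per peak has no header and is read as a modification density. In the corrected H3K4me3 list 4 values exceeded 100, up to 107.5, so it is not called a percent. MACS2, Bowtie2, bedtools and SAMtools appear in the submitters' processing notes, with versions and calling settings not given in the sources used here. Per the deposited note, the corrected lists were computed from 4 source libraries to remove off-target capture. Of the 13 independent lists, 11 carry the tag AR16 and 2, Diagenode C15410003 and EpiGentek A-4033-050, the tag AR17, each with an input of the same tag, and 10 libraries were amplified for 8 cycles and 3 for 12, per the labels.

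GENCODE 44 gave 19970 protein-coding canonical TSS, of which 8 with repeated symbols were left out. An overlap of 1 base counted as a peak in the window. The depth behind a peak list is unknown, which leaves its shares without an interval, and a window with no listed peak is not shown to be unmodified. Per list, members were compared with both-mark windows, and these differences were compared between targets by exact two-sided permutation over antibodies, with Benjamini-Hochberg adjustment over 9 tests and a threshold of 0.05. A further 9 exact sign-flip tests within targets were adjusted together. Genes were named by highest value, widest peak, list membership and nearness to corrected H3K4me2, and those named after their values were seen are said to be so. The members and gene lists were chosen with earlier results of these data known. Alternatives were other windows, TSS, overlaps, peak heights, widths and subsets of antibodies. The scripts were tested on simulated data. Python 3.11.15, NumPy 2.4.6, pandas 2.3.3, SciPy 1.17.1, statsmodels 0.14.6 and matplotlib 3.10.9 were used.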

Additional observations from a re-analysis of the deposited data

Results flagged for a closer look

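EMD Millipore 07-473 stood apart from the other 5 independent H3K4me3 antibodies. It had a peak at 53.8% of the 303 promoters, where the others had one at 10.2% to 23.4%. Members minus both-mark windows came to -43.8 points, against -75.3 to -72.0 for the others, and the log2 ratio of its median value was -2.07. Its list covers 165 Mb, and the part of that length in these values was not tested. Of 8 groups of antibodies examined for such gaps, chance gives about 1 in 20.

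The differences between H3K4me1 and H3K4me3 antibodies, of 53.6 points in the share of windows and 105 points in TSS occupancy, passed the exact permutation test (adjusted p = 0.0429 each). Every independent H3K4me1 list covers more of the genome than any independent H3K4me3 list. The part of covered length in these differences was not tested.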

How the results depend on the processing

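The 2 differences between H3K4me1 and H3K4me3 each passed in 13 of 28 alternatives. For the share of windows (53.6 points) the values that did not pass were 36.04 with peaks at or above the list's median, 50.8 with the AR16 libraries and 51.3 with libraries of 8 cycles (adjusted p = 0.129 each, exact permutation). Splits by corrected value, chosen after seeing the data, gave 0.0594 at 20 or more and 1.67 under 20. Leaving out 1 antibody gave 52.0 to 58.5. For TSS occupancy (105 points) the same settings gave 104.0, 102.7, 101.97, 24.2 and 3.98, and leaving out 1 antibody 99.4 to 116.2. The first 3 settings and the omissions use fewer antibodies. The cause was not tested for the rest.

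Differences that had not passed changed sign as follows. The log2 value of H3K4me1 minus H3K4me2 (0.11) was -0.16 with 500-base windows, -0.25 with peaks over at least 0.5 of the window, -0.048 at values of 20 or more and -0.22 to 0.41 without 1 antibody. H3K4me1 minus H3K4me3 (-0.21) was 0.32 with 8 cycles and 0.55 under 20. H3K4me2 minus H3K4me3 (-0.32) was 0.30 under 20 and -0.83 to 0.014 without 1 antibody. Members minus both-mark windows in H3K4me3 value (-0.53) was 0.00865 with the 0.5 overlap and 0.0169 at 20 or more. At 20 or more, H3K4me2 gave 0.00119 in value and 0.977 points in occupancy, and the share of H3K4me1 minus H3K4me2 was -6.81. Under 20, H3K4me2 minus H3K4me3 was -4.89 in share and -0.501 in occupancy, and H3K4me1 occupancy was -5.36.

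With 500-base windows 182 promoters met the rule, 120 of them with H3K4me3 in at most 1 list. Without EMD Millipore 07-473, chosen after seeing the data, 41 rather than 65 had 4 or more lists. No paired analysis was possible because replicate numbers only name antibodies in accession order.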

Other observations

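4 families were put together from the names of members, so their counts show no enrichment. Keratins and keratin-associated proteins gave 10 members of 149 and mucins 2 of 17. Receptors of the TAS, GRM, HTR, HRH and NPFF families gave 6 of 58, and solute carriers 4 of 373 (1.07%, below the 1.52% of all windows). All of these members had a corrected value under 20. Counted around the gene's own 5′ end, C1QBP had a peak in 1 independent H3K4 list in place of 10, and SPSB3 in 6 in place of 13. With 500-base windows HSD17B1 had 7 in place of 11.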
